A study of Mus musculus with 2 samples.

Results

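The replication-dependent histone genes were examined in spleen chromatin as the 67 protein-coding genes, of 21851 in the GENCODE vM21 annotation, whose symbol begins with Hist1h, Hist2h, Hist3h or Hist4h. They comprise 6 H1, 18 H2A, 18 H2B, 12 H3 and 13 H4 genes. On mm10, the 54 Hist1h genes lie on chromosome 13, in 23 genes at chr13:21715763-22043676 and 31 genes at chr13:23531050-23934851. The 10 Hist2h genes lie at chr3:96219865-96270132, the 2 Hist3h genes at chr11:58948920-58956830 and Hist4h4 at chr6:136801553-136804415. DNase-seq, which sequences the places where the enzyme DNase I cuts open chromatin, had been applied to spleens of male B6CASTF1/J mice aged 4 days, the offspring of a cross of C57BL/6J and CAST/EiJ mice. There was 1 group of 2 libraries, labelled as biological replicates 1 and 2, with no untreated or other comparison group, so every value below is a description without a test.

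These genes encode the core histones H2A, H2B, H3 and H4, which wrap DNA into nucleosomes, and the linker histone H1, which binds the DNA between them. They are transcribed in S phase, when replicating cells package new DNA, and the erythroid and B-lineage precursors of a newborn spleen divide. The factor NPAT acts on all classes, HINFP reads an element of H4 promoters, OCT1 reads an octamer in H2B promoters and NF-Y reads CCAAT boxes. The mRNAs end in a stem loop bound by SLBP in place of a poly(A) tail.

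The sequences below show the promoter with the highest signal in each class among the 62 of 67 members that also have a RefSeq promoter entry. Each is the 150 bases before the annotated start site, from the RefSeq GRCm38.p6 genome (C57BL/6J), 5′ to 3′ on the strand of the gene. Capitals mark the bases that lay inside a DNase footprint, a short protected stretch called by the authors, in both libraries.
Hist1h1c (chr13:23738658-23738807, plus strand): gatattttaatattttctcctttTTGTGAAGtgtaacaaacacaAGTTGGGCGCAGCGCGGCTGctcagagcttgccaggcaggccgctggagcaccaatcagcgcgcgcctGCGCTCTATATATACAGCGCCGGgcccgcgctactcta
Hist2h2aa2 (chr3:96240277-96240426, minus strand): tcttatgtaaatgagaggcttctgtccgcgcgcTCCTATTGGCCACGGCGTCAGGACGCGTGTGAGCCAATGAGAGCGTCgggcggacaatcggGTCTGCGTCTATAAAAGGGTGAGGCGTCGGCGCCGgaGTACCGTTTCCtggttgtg
Hist2h2bb (chr3:96269602-96269751, plus strand): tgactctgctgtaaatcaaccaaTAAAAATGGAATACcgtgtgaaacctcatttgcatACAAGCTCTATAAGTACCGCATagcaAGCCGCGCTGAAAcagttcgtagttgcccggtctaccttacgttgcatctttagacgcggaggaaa
Hist1h3e (chr13:23562370-23562519, minus strand): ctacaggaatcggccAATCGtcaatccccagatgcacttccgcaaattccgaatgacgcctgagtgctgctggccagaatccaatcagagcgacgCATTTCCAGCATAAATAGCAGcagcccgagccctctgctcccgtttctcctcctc
Hist1h4a (chr13:23761231-23761380, minus strand): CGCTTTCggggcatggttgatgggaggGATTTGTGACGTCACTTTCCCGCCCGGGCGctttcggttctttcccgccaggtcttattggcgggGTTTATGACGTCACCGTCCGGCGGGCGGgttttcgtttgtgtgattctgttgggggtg
The bases in footprints of both libraries numbered 51 in Hist1h1c, 93 in Hist2h2aa2, 49 in Hist2h2bb, 26 in Hist1h3e and 65 in Hist1h4a.

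Blood marker genes were open in both libraries. All 7 blood markers examined had a peak of each library within 1 kb of a start site, against 60.1% of all protein-coding genes. Their median signal was 3.51, against 5.83 over all open protein-coding genes. The weakest was Pax5, a B-lineage factor, at 1.03 in replicate 1 and 1.37 in replicate 2. The strongest was Epb41, a red cell skeleton gene, at 28.0 and 29.5. The liver genes Alb and Ahsg and the spleen stroma gene Nkx2-5 had no peak of both libraries, whereas the olfactory receptor gene Olfr433 and the stroma gene Tlx1 had weak peaks averaging 0.617 and 0.410. The longer peak lists held 80323 and 88723 peaks with median signals of 0.796 and 0.650. Signal is the authors' value per peak, of a scale that is not stated and with a factor of its own in each library, so the depth is unknown. In bulk tissue, fewer open cells and less opening per cell cannot be told apart.

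Nearly all clustered histone genes had open chromatin at the promoter. Of the 67 members, 60 (89.6%) had a peak of each library within 1 kb of a start site, against 60.1% of all protein-coding genes and 89.7% of those rich in CpG dinucleotides (an observed over expected ratio of at least 0.5). CpG-rich promoters made up 65 of the 67 members, so the share of open members stood beside that of CpG-rich genes in general. With the stricter peak lists, 59 members were open, against 54.7% of all genes, and 60 had a footprint of each library within 1 kb, against 58.9% of all genes. In a narrower promoter window, from 250 bp before to 50 bp after the start site, 57 members had a peak of each library, against 54.6% of all genes. This window was added after the data were seen, because in the clusters 1 kb often reaches a neighbouring gene: in 8 of the 57 members the highest peak within 1 kb lay outside the promoter window. Hist1h3a, an H3 gene, had 21.9 and 18.2 within 1 kb, which is the peak of its neighbour Hist1h4a, and 3.96 and 3.91 in its own promoter window.

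The median signal of the members lay close to that of all open genes and below that of CpG-rich ones. The median of the highest signal within 1 kb was 5.77 over the 60 open members, against 5.83 over all open protein-coding genes and 7.05 over the CpG-rich ones. In the promoter window it was 5.68 over the 57 members, against 6.05 over all open genes and 7.12 over the CpG-rich ones. Of the 57 members, 10 (17.5%) exceeded 11.5, the upper quartile of all open promoters. The libraries gave close values for single members: on the log2 scale, replicate 1 minus replicate 2 had a median of 0.05 over the members and 0.25 over all open promoters, and 56 of 57 members lay within 0.5 of 0. The exception was Hist1h2bm, an H2B gene, with 3.16 in replicate 1 and 1.47 in replicate 2. These values belong to different peaks, centred after the start site in replicate 1 and before it in replicate 2. Within 1 kb, Hist1h2bm had 3.16 in replicate 1 and 2.90 in replicate 2, so the gap in the promoter window does not show that the libraries differed at 1 peak.

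**Figure D1:**
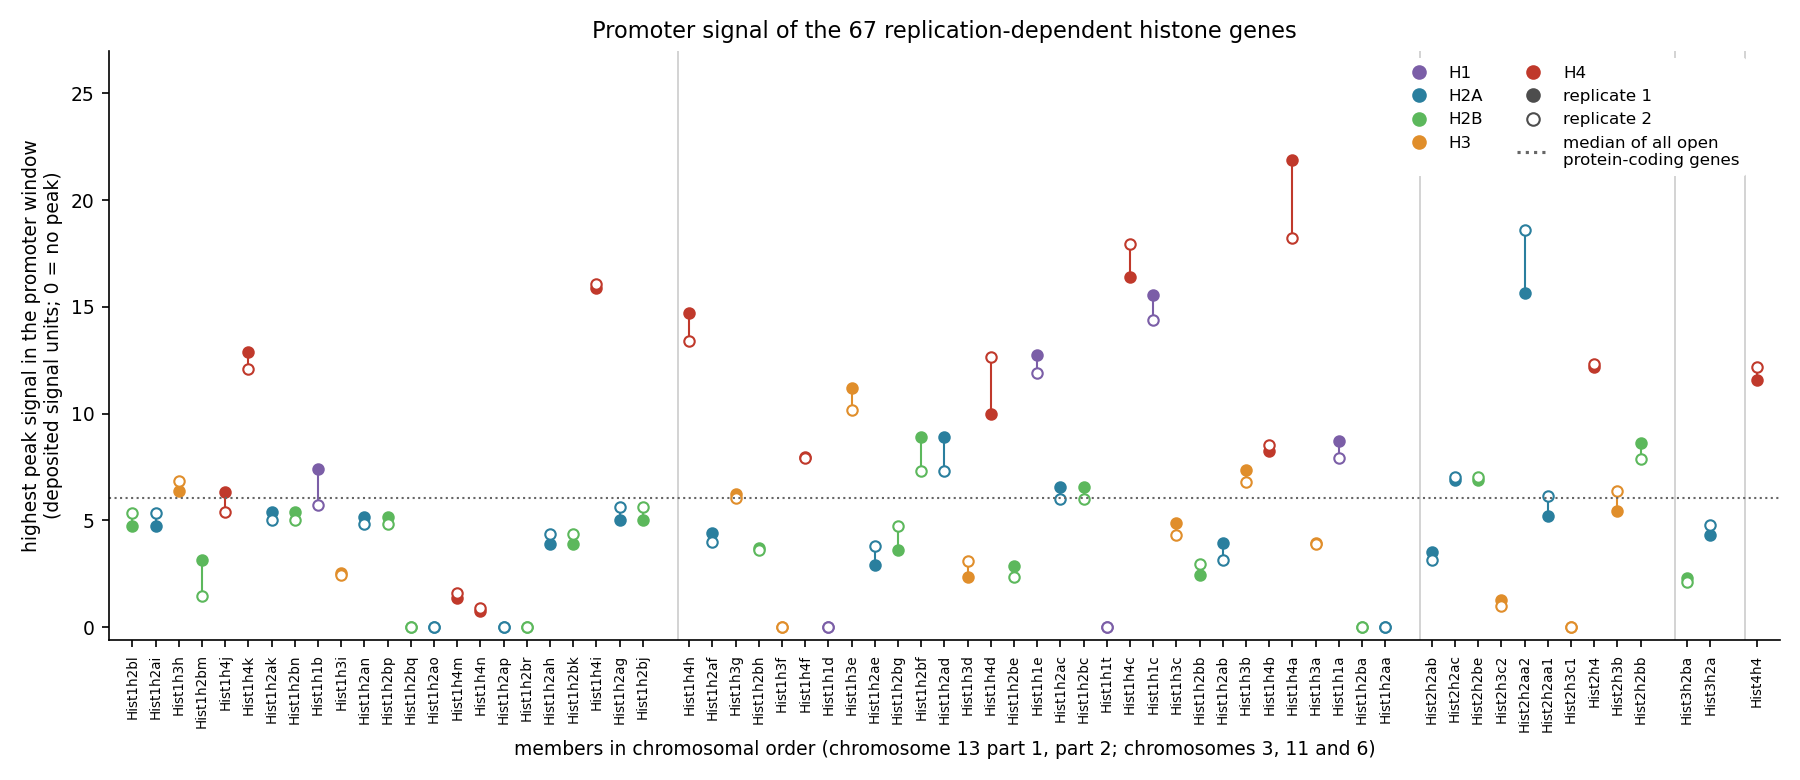
Highest peak signal in the promoter window (y axis, deposited signal units) of each of the 67 members in chromosomal order (x axis), with replicate 1 as filled and replicate 2 as open points coloured by class; grey lines divide the clusters and the dotted line is the median of all open protein-coding genes, 6.05. Hist2h4, Hist4h4 and most H4 genes on chromosome 13 lie above that line, Hist1h4m and Hist1h4n lie below it, and 10 members lie at 0.

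Median signal differed by histone class. H4 promoters had the highest median of the classes, 11.9 over 13 genes, followed by 10.3 over the 4 open H1 genes, 5.25 over 10 H3 genes, 5.04 over 15 H2A genes and 4.98 over 15 H2B genes, all in the promoter window as means of both libraries. The same medians within each library were 11.6 and 12.2 for H4, 10.7 and 9.92 for H1, 5.15 and 5.19 for H3, 5.00 and 5.03 for H2A, and 4.72 and 4.82 for H2B, so H4 lay above H2A, H2B and H3 by 6.63 to 6.90 signal units, against SDs between the library medians of at most 0.411. These SDs describe the libraries and not the spread between genes, and single genes overlapped between classes. Means ran from 0.825 to 20.1 in H4, 3.33 to 17.1 in H2A, 2.20 to 8.24 in H2B and 1.12 to 10.7 in H3. H4 lay above H1 as well, but there the classes overlapped widely and only 4 H1 genes counted. The H1 median leaves out Hist1h1d, whose start site is annotated 1828 bp from its start codon, where it averaged 8.40. Genes are not replicates of a class, and divergent H2A and H2B pairs share peaks. The promoter window of a paired gene can also take in a separate peak of its partner, so some H2A and H2B values are the partner's. Hist1h2bc, an H2B gene, had 6.56 and 6.01 in its window but 3.80 and 5.03 on its own start site. Hist1h2ak, an H2A gene, had 5.39 and 5.03 in its window but 3.76 and 3.48 on its own start site. Of the open promoters, 7 of 13 H4 genes and 2 of 4 H1 genes exceeded the upper quartile of all open promoters, against 1 of 15 H2A genes, 0 of 15 H2B genes and 0 of 10 H3 genes.

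Among the H4 genes, Hist1h4a had 21.9 in replicate 1 and 18.2 in replicate 2 (mean 20.1 ± 2.59, SD, n = 2), the highest value of all members. Hist1h4c followed with 16.4 and 18.0, and Hist1h4i with 15.9 and 16.1. The single genes of the smaller clusters were alike, with 12.2 and 12.3 for Hist2h4 on chromosome 3 and 11.6 and 12.2 for Hist4h4 on chromosome 6. Hist1h4b had 8.26 and 8.51, Hist1h4f 7.97 and 7.94, and Hist1h4j 6.32 and 5.41. The lowest H4 values were 1.37 and 1.61 for Hist1h4m and 0.742 and 0.907 for Hist1h4n, whose sequence is repeated, as described further on.

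Of the 6 H1 genes, Hist1h1c was highest, with 15.6 and 14.4 (SD 0.838, n = 2). Hist1h1e had 12.8 and 11.9, Hist1h1a 8.70 and 7.93, and Hist1h1b 7.39 and 5.73. Hist1h1t, the testis-specific H1 gene, had no peak in the promoter window and a weak one of 1.24 and 1.04 within 1 kb. Hist1h1d had no peak of replicate 1 and 0.466 in replicate 2 within 1 kb of its start site, but that site is annotated 1828 bp from the start codon, in sequence with a CpG ratio of 0.115. With the promoter window placed on its start codon, Hist1h1d had 8.71 and 8.08, in the range of the other somatic H1 genes.

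H2A, H2B and H3 promoters had lower medians. The strongest H2A promoter was Hist2h2aa2, with 15.7 and 18.6 (mean 17.1 ± 2.07, SD, n = 2), and the other open H2A genes averaged at most 8.11. H2B promoters had means from 2.20 in Hist3h2ba to 8.24 in Hist2h2bb, which had 8.62 and 7.85. The H3 genes were led by Hist1h3e, with 11.2 and 10.2 (mean 10.7 ± 0.716, SD, n = 2), followed by Hist1h3b with 7.37 and 6.81, and ended with Hist2h3c2 at 1.27 and 0.969. Hist1h3f, another H3 gene, had no peak in the promoter window, but its start site is annotated 433 bp from its start codon, and it had 5.15 in replicate 1 and 4.6 in replicate 2 within 1 kb of either.

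**Figure D2:**
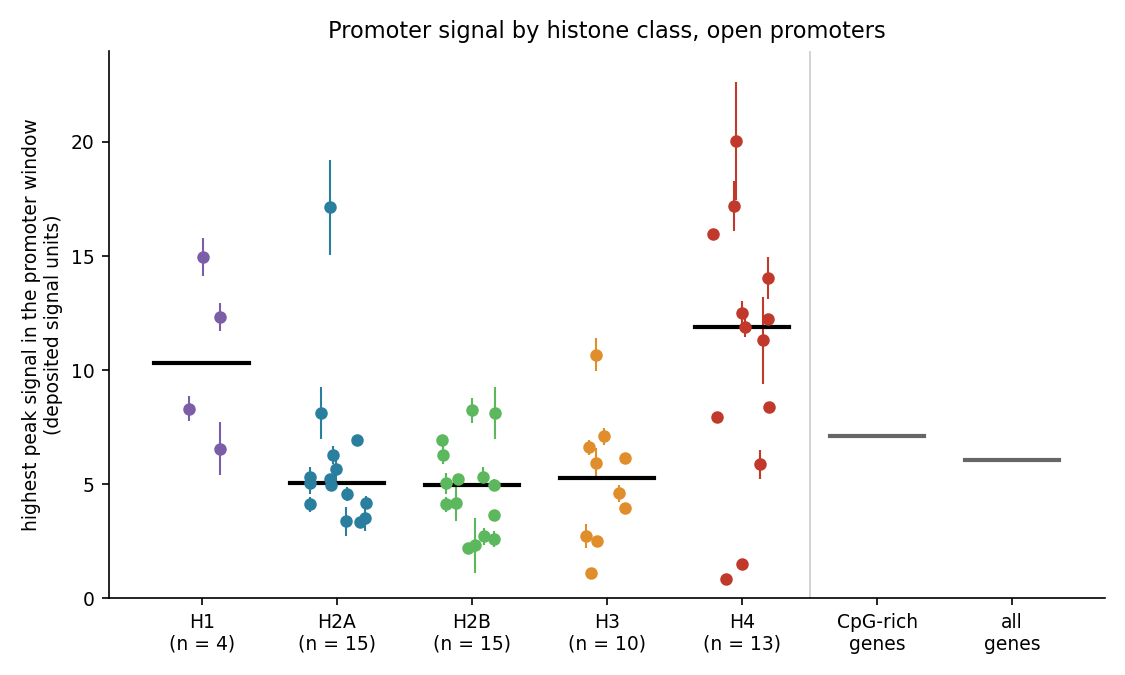
Highest peak signal in the promoter window (y axis, deposited signal units) of open members by histone class, as means of both libraries with SD bars (n = 2) and class medians as black lines, beside the medians of CpG-rich and of all open protein-coding genes as grey lines. H4 and H1 have medians of 11.9 and 10.3, and H3, H2A and H2B have 5.25, 5.04 and 4.98.

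The chromosome 3 cluster had a higher median than the chromosome 13 cluster, though not in every class. The promoter window median was 6.95 over the 9 open genes of the chromosome 3 cluster and 5.31 over the 45 open genes of the chromosome 13 cluster, 11.9 for Hist4h4 and 3.37 over the 2 genes on chromosome 11. Within chromosome 13, the 26 open genes of the second stretch had a median of 6.69, and the 19 of the first had 5.04. Within H2A, the chromosome 3 genes had a median of 6.31 over 4 genes, and those on chromosome 13 had 5.01 over 10. Within H3 the order was the other way, with 3.51 over 2 genes on chromosome 3 and 5.37 over 8 on chromosome 13. Within H4, 12.2 for the chromosome 3 gene stood beside 11.3 over the 11 genes on chromosome 13.

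The members with no peak of both libraries within 1 kb numbered 7. Hist1h2bq with Hist1h2ao, and Hist1h2ap with Hist1h2br, are 2 divergent pairs of H2B and H2A genes that had no peak, no footprint and no position below the authors' FDR limit of 0.05 in either library. Every 31-base word of their promoter windows occurs more than once in the genome, so reads of that length from them have several places of origin, and the lack of a peak does not show closed chromatin. Hist1h2ba and Hist1h2aa, the testis-specific H2B and H2A genes, also had no peak, no footprint and no such position in either library, but their promoter windows held 0% repeated words. The seventh was Hist1h1d, described above.

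Repeated sequence lay at several weak members and at 1 strong one. At least 50% of the 31-base words of the promoter window were repeated in 10 members, and 5 of these were open there, against 52 of the 57 other members. Hist1h4m and Hist1h4n had 94.4% repeated words each, and the 100 bases before their start sites were identical at 100 of 100 positions. On chromosome 3, Hist2h2aa2 had 15.7 and 18.6 with 88.5% repeated words, whereas its copy Hist2h2aa1 had 5.22 and 6.14 with 73.3%. Hist2h3c2, with 88.5%, had 1.27 and 0.969, and its copy Hist2h3c1, also with 88.5%, had no peak in the promoter window. Values of such copies are uncertain, since how the authors treated reads that match several places is not given in the sources used here.

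**Figure D3:**
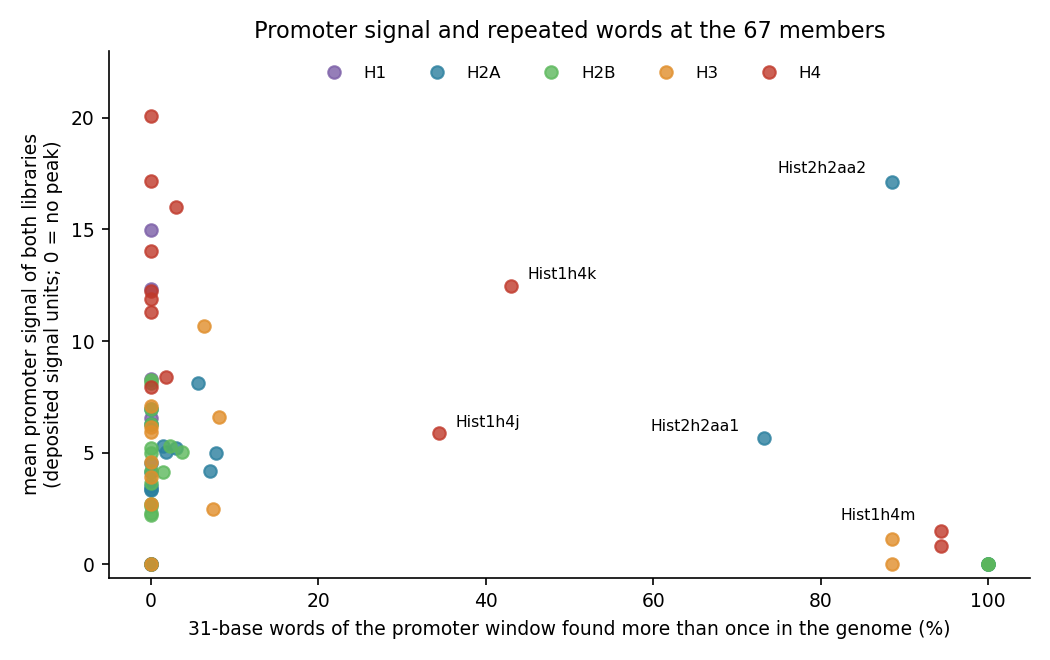
Mean promoter signal of both libraries (y axis, deposited signal units, 0 for no peak) of the 67 members against the share of 31-base words of the promoter window found more than once in the genome (x axis), coloured by class. The 4 genes at 100% lie at 0, and Hist2h2aa2 at 88.5% has 17.1.

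Peaks sat on the start sites in most members, least often in H2B genes. At 20 bp before the start site, 87.7% of the 57 open members were covered by a peak of both libraries, while all open protein-coding genes reached at most 76.3%, at 40 bp before it. All 13 H4 genes and all 10 H3 genes were covered at the start site, as were 86.7% of 15 H2A genes and 66.7% of 15 H2B genes. The H2B genes reached 73.3% at 2 places, 280 to 240 bp before the start site and 40 bp after it. In pairs of H2A with H2B genes, described below, the partner's start site lay a median of 259.5 bp away, within the first place. Median peak width was 220 bp for the members in each library and 200 bp for all open promoters. The annotation limits these positions, since 13 members have a start site annotated at the start codon itself, with no leader. Hist1h2be, an H2B gene, has a start site annotated 35138 bp from its start codon. It had 2.86 and 2.35 in the promoter window, which counts in the H2B values. With that window placed on the start codon, it had 3.73 and 3.54.

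**Figure D4:**
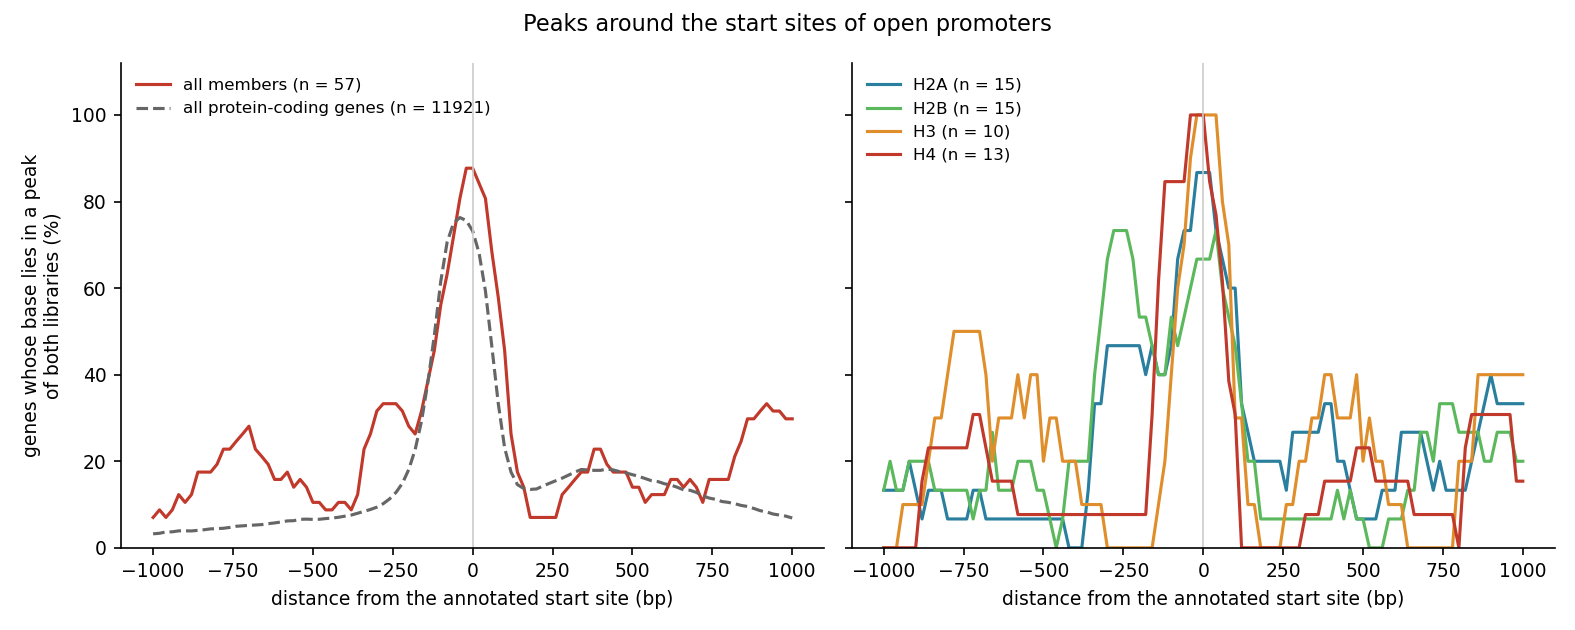
Share of open genes whose base lies in a peak of both libraries (y axis, %) against the distance from the annotated start site (x axis, bp), for members and all open protein-coding genes (left) and for H2A, H2B, H3 and H4 members (right). Members reach 87.7% near the start site, and H2B genes have 2 equal maxima of 73.3%, at 280 to 240 bp before it and at 40 bp after it.

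Most H2A and H2B genes were in divergent pairs. Of the 36 H2A and H2B genes, 25 lie in a divergent pair, in which start sites on opposite strands stand head to head within 1 kb. There were 13 pairs, 12 of H2A with H2B, at 176 to 306 bp between the nearest start sites (median 259.5 bp), and 1 of Hist1h2bh with Hist1h3f at 660 bp. A peak of each library was found at 10 pairs, and the others were the repeated pairs and the testis pair named above. The strongest was Hist1h2bf with Hist1h2ad, at 8.91 and 7.30 (mean 8.11 ± 1.13, SD, n = 2), followed by Hist2h2ac with Hist2h2be at 6.87 and 7.03 and Hist1h2ac with Hist1h2bc at 6.56 and 6.01. The weakest were Hist1h2bh with Hist1h3f at 3.73 and 3.61, Hist1h2ah with Hist1h2bk at 3.89 and 4.34, and Hist1h2ae with Hist1h2bg at 3.61 and 4.75. The first of these values is the peak of Hist1h2bh alone. Hist1h3f had no peak in its promoter window, and its start site is annotated 433 bp from its start codon.

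The sequences between the start sites of the strongest pair and of Hist1h2ac with Hist1h2bc show where footprints lay between paired genes. They run from the minus-strand gene to the plus-strand gene, on the plus strand, and capitals again mark footprints of both libraries.
Hist1h2bf and Hist1h2ad (chr13:23574197-23574380): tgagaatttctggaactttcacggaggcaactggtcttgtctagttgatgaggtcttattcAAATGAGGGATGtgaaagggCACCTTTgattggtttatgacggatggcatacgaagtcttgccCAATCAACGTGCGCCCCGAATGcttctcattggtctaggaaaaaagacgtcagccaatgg
Hist1h2ac and Hist1h2bc (chr13:23683949-23684198): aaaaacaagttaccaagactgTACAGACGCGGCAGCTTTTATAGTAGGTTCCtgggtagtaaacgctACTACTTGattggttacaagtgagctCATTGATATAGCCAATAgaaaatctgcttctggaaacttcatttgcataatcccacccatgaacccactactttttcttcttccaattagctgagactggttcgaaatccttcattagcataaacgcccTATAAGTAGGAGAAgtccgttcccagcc
In Hist1h2ac with Hist1h2bc, each library had separate peaks on the H2A start (6.56 and 6.01) and on the H2B start (3.80 and 5.03) and none midway. Over the 9 open H2A with H2B pairs, a peak of each library covered the H2A start in 7, the H2B start in 6 and the midpoint in 4. Signal was higher on the H2A start than on the H2B start in both libraries in 3 pairs, and lower in both in 2.

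Paired members did not have higher signal than unpaired ones as a whole. Within 1 kb, the 20 open members in pairs had a median of 5.13 and the 40 open members in none had 6.78. The unpaired members include all H4 and H1 genes. Among H2A and H2B genes alone, the order was the other way, with a median of 5.21 over 19 open genes in pairs and 4.18 over 11 in none.

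Promoter elements were searched as fixed letters on both strands in the window from 250 bp before to 50 bp after the most upstream start site. They were TATAAA for the TATA box, CCAAT, ATTTGCAT for the octamer, GGTCC for the core of the H4 element read by HINFP, TTTCGCGC or TTTGGCGC for E2F, and GGGCGG for Sp1. Matches may overlap each other, partners of a pair share matches, and a match is not a binding site. TATAAA occurred in 37 of the 67 members (55.2%), against 12.5% of all protein-coding promoters. CCAAT occurred in 56 members (83.6%), against 38.8% of all promoters, with 18 of 18 H2A, 18 of 18 H2B, 11 of 12 H3 and 5 of 6 H1 genes but 4 of 13 H4 genes. The octamer occurred in 15 members (22.4%), against 1.57% of all promoters, in 8 H2B and 7 H2A genes and in no other class. The E2F words occurred in 9 members (13.4%), against 1.05%, all of them H2A or H2B genes. GGTCC occurred in 31 members (46.3%), against 47.3%, and GGGCGG in 28 (41.8%), against 44.9%. By class, GGTCC was found in all 13 H4 genes and in 18 of the other 54.

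Footprints covered 25.8% and 27.8% of the promoter window bases of the 57 open members in replicates 1 and 2, against 21.7% and 22.7% for all open genes. The median number of footprints in the window was 4 and 5 for members and 5 in each library for all open genes. H4 windows had the largest share of bases in footprints, 29.4% in replicate 1, though H1 exceeded it in replicate 2 with 31.5% against 30.5%, and H3 windows had the smallest in both, 18.7% and 19.2%. The member with the most footprints in a window was Hist1h4f in replicate 2, with 9. Within their classes, Hist1h2ah and Hist1h2bk had 8 in each library, and Hist1h3e had 8 and 6.

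TATAAA matches touched footprints in many members, though not all lay at the usual place of a TATA box. Of 23 matches on the strand of the gene in members with an annotated leader of under 400 bp, 10 lay between 50 and 20 bases before the start site. In open promoters, 23 of 37 TATAAA matches (62.2%) touched a footprint of both libraries, against 19% of 853 matches over all genes. Counting a match shared by partners once, these were 18 of 30 (60%) and 18.4% of 826. All 3 matches in open H1 promoters touched one, those of Hist1h1a, Hist1h1b and Hist1h1e. CCAAT matches touched a footprint of both libraries less uniformly, in 40 of 130 (30.8%), against 25.7% of 7399 over all genes. By class this was 17 of 44 in H2A, 16 of 49 in H2B, 5 of 26 in H3, 2 of 5 in H4 and 0 of 6 in H1. In Hist1h1c, printed above, the letters ccaat lie outside the footprints, and the stretch GCGCTCTATATATACAGCGCCGG nearer to the start site lies within one.

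The octamer was present in H2A and H2B promoters without footprints of both libraries. Of 13 octamer matches in open member promoters, 4 touched a footprint in replicate 1 and 0 in replicate 2. Over all genes, 23 of 171 matches (13.5%) touched footprints of both libraries. Counting a match shared by partners once, the members had 9 matches, against 14% of 164 over all genes. So few matches cannot set 0 apart from that share. The printed Hist2h2bb and Hist1h2ac with Hist1h2bc sequences both hold atttgcat in lower case, outside such footprints. Of 9 E2F matches in members, 5 touched footprints of both libraries, at 3 distinct places, against 43.6% of 202 matches over all genes. GGGCGG matches did so in 26 of 40 cases (65%), against 54.2% of 18331.

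GGTCC lay at a footprint in most H4 genes. GGTCC matches touched a footprint of both libraries in 17 of 31 cases (54.8%) over the open members, against 18.4% of 9412 over all genes, and 11 of the 17 were in H4 promoters. By gene, 10 of the 13 H4 members had such a match. In 9 of them it lay on the strand of the gene and before the start site, and the tenth was Hist1h4a, with a match on the opposite strand after it. GGTCC lay on the strand of the gene in 12 H4 genes. Its first base, in the match nearest to the start site, was at positions from -80 to -11, where -1 is the last base before the start site. The 100 bases before the start site of 5 H4 genes, chosen after their values were seen, show the element with its surroundings, with capitals for footprints of both libraries.
Hist1h4c (chr13:23698455-23698554, minus strand): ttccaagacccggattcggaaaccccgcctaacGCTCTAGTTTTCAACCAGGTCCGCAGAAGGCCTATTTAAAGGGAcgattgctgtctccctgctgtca
Hist1h4i (chr13:22041363-22041462, minus strand): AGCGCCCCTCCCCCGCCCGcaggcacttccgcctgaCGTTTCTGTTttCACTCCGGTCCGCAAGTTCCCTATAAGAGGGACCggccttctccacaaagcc
Hist1h4d (chr13:23581498-23581597, plus strand): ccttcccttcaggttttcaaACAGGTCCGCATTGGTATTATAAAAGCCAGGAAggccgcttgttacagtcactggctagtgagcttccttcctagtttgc
Hist2h4 (chr3:96263312-96263411, minus strand): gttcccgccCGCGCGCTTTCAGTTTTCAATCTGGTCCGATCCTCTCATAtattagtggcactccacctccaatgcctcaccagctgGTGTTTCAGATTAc
Hist4h4 (chr6:136804416-136804515, minus strand): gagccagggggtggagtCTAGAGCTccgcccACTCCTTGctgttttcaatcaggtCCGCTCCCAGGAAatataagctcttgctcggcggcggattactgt
In Hist1h4c, Hist1h4i, Hist1h4d and Hist2h4 the whole of GGTCC lies in capitals, and in Hist4h4 its last letters do. Where TATAAA followed on the same strand, GGTCC began 15 bases before it in Hist1h4d and 16 bases before it in Hist1h4j and Hist1h4k. The H4 genes whose match touched no footprint of both libraries were Hist1h4j, Hist1h4m and Hist1h4n.
Hist1h4m (chr13:21811646-21811745, plus strand): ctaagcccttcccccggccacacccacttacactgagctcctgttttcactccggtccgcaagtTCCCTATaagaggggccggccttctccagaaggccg
The repeated copy Hist1h4m is shown for contrast, with 7 bases in footprints of both libraries beside 63 in Hist1h4i.

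**Figure D5:**
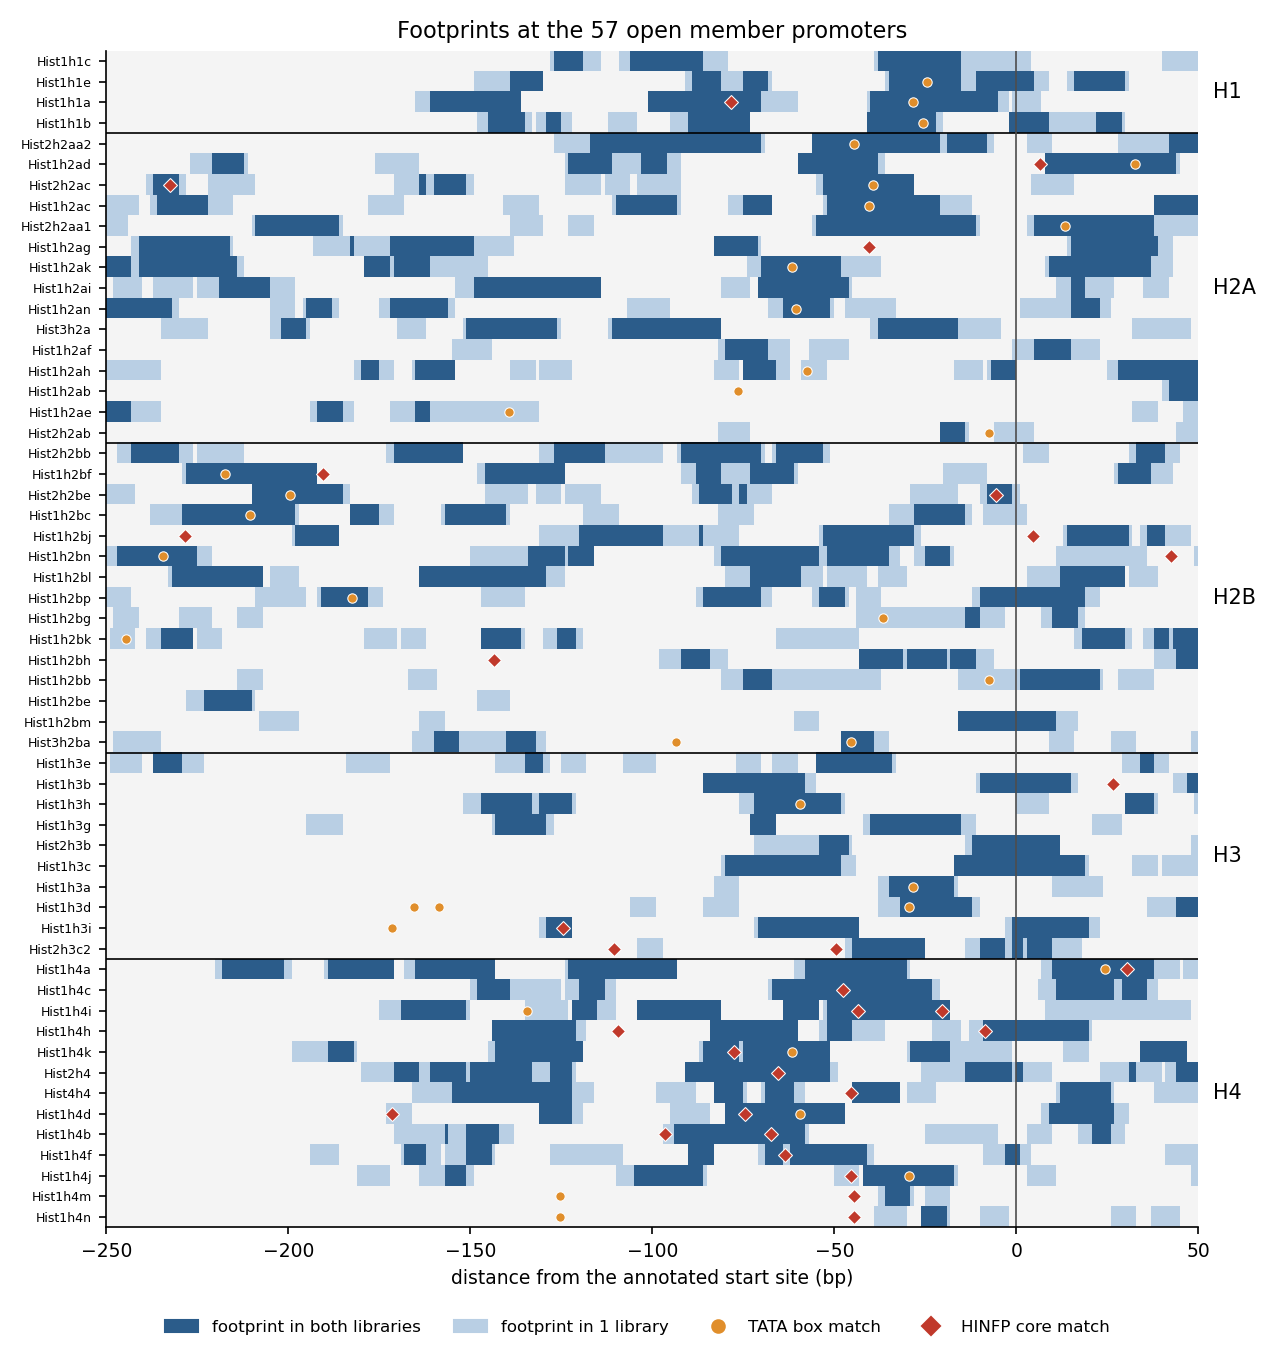
Footprints of the 57 open member promoters (rows, by class) against the distance from the annotated start site (x axis, bp), dark blue where both libraries and light blue where 1 library had one, with TATA box matches as circles and HINFP core matches as diamonds. In H4 promoters most diamonds lie on dark blue stretches before the start site, while those of Hist1h4j, Hist1h4m and Hist1h4n touch no dark blue stretch.

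Nearly all members carried the 3′ stem loop. A perfect stem of 6 base pairs starting with GG and closed by a loop of 4 bases was found within 150 bp after the stop codon in 65 of the 67 members, against 0.805% of all protein-coding genes. It began 22 to 59 bases after the stop codon, with a median of 31. Every H4 stem began with GGCCC or GGTCC and every other stem with GGCTC, as these forms show, each with the number of members that hold it.
Most H1, H2A, H2B and H3 genes, 41 members: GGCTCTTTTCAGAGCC
Other H1, H2A, H2B and H3 genes, 9 members: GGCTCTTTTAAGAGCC
Most H4 genes, 8 members: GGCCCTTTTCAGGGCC
Hist1h4b and Hist1h4j, 2 members: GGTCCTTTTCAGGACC
The 7 members without a peak of both libraries all have a stem loop, the testis genes included. Hist1h2an, an H2A gene, and Hist2h2be, an H2B gene, had no such match in the window.

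Open regions were dense in the clusters, mostly near member start sites. Overlapping peaks of both libraries formed 73 regions in the first stretch on chromosome 13 and 69 in the second, or 22.3 and 17.1 per 100 kb, and 21 on chromosome 3, or 41.8 per 100 kb, against 2.22 per 100 kb over the genome. These counts include the members' own promoters. The regions more than 1 kb from every member start site came to 11 and 4.21 per 100 kb of the first and second stretch and 7.96 on chromosome 3. In the second stretch, 52 of 69 regions lay within 1 kb of a member start site, and on chromosome 3, 17 of 21. In the first stretch 37 of 73 did, and 24 of the other 36 lay within 200 bp of a tRNA gene of the RefSeq annotation. Of the 31 tRNA genes in that stretch, 24 had a region of both libraries within 200 bp, against 58.8% of all 408 tRNA genes. The strongest region away from members in the first stretch, at chr13:22028761-22028960, had 10.9 in replicate 1 and 13.9 in replicate 2. It lay within 200 bp of no tRNA gene and within 1 kb of no other protein-coding start site. The next region, at chr13:22029181-22029340, lay within 200 bp of a tRNA gene. In the second stretch the strongest was the one at the start codon of Hist1h1d.

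Most other genes between the outermost members on chromosome 13 had no peak of both libraries. Of these 49 protein-coding genes, 40 lie in the gap between the stretches and 9 within them. A peak of each library within 1 kb was found at 8 of the 49, against 60.1% of all protein-coding genes. None of the 36 vomeronasal or olfactory receptor genes, which encode chemical sensors of the nose, had one. The 8 open genes were among the other 13, with a median of 1.21 and a highest mean of 13.5. Their share of these 13 was 61.5%, near the 60.1% of all protein-coding genes, so the low share of the 49 came from the receptor genes.

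The genes that serve the clusters were open throughout. All 23 listed genes for transcription and 3′ processing of histone mRNA had a peak of each library within 1 kb, against 60.1% of all protein-coding genes, with a median of 12.1. The 2 strongest were Ccne1, which encodes cyclin E1, with 32.8 and 28.9, and Nfya, a subunit of NF-Y, with 31.9 and 28.4. Npat had 21.7 and 19.3, Hinfp 15.5 and 13.2, and Slbp 13.1 and 10.3. All 16 histone chaperone genes were open as well, with a median of 12.6, led by Asf1b with 20.9 and 14.3 and Mcm2 with 17.7 and 17.3. These lists have higher medians than the 5.77 of the members, without a test. Over all open protein-coding genes the median was 5.83, and over the CpG-rich ones 7.05. Of CpG-rich genes, 89.7% were open, and the CpG ratios of the listed genes are not given here.

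Replacement histone genes, which are transcribed outside S phase too, were open in 11 of 17 cases (64.7%), against 60.1% of all protein-coding genes, with a median of 12.4. H2afv and H2afz, which encode H2A.Z proteins, were the strongest. H2afv had a mean of 21.3, and H2afz had 19.5 in replicate 1 and 16.3 in replicate 2. The 6 without a peak in either library were the germ cell genes H1fnt, H1foo, Hils1, H2afb1, H2afb2 and H2afb3. Among the members, the testis genes Hist1h2aa and Hist1h2ba had none either, whereas Hist1h1t had a weak peak of 1.24 and 1.04 within 1 kb. Repeated words were counted for members only, so whether repeats affect the 6 replacement genes is not known.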

How the data were processed

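Both libraries are separate biological replicates of 1 group, per the labels. Peaks, with 1 signal value each on an unstated scale, were deposited per library on mm10, per the file headers, as a longer and a stricter list. The authors' footprints carry an FDR of 0.01 in every line, and their deposited positions an FDR of up to 0.05. Not given in the sources used here: aligner, caller, depth and the placing of CAST/EiJ or multiply matching reads. The highest peak overlapping a window by at least 1 bp was taken for each gene, and a gene was open with a peak of each library. Windows were 1 kb on either side of every GENCODE vM21 start site. The promoter window and the start codon window were added after the data were seen. Python 3.11.15, numpy 2.4.6, pandas 2.3.3, pysam 0.24.0 and samtools 1.23.1 were used, and the search for stem loops and repeated 31-base words was tested on simulated data. Named were the 3 highest and 3 lowest open members, members without peaks of both libraries, the 3 strongest and 3 weakest pairs, the members richest in footprints and 2 to 5 genes per list. Other named members and sequences were chosen after their values were seen. Members and lists were chosen with earlier results of these data known.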

Additional observations from a re-analysis of the deposited data

How the results depend on the processing

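No paired analysis was possible because there was 1 group. The promoter and start codon windows, leaving out repeated members and using H2A and H2B genes alone were chosen after seeing the data. Of 76 alternatives over 12 results, 50 stayed within a set limit, 25 moved a value and 1 reversed it, and the causes were not tested. The limit was the SD between single libraries for signals and a wider ratio for counts. The single-library values that set the limit for signals were also counted as alternatives. Sums and percentile ranks have a scale of their own, so the tally is not a measure of robustness. Within the limit, the median of footprints (11) was 7.5 for those overlapping one of the other library. Likewise, 30 members (23) had a TATA box in a footprint with replicate 1 left out. The median member signal (5.77) was 5.31 with 500 bp, 6.61 with 2500 bp, 9.09 as a sum of signals and 91.1 as a percentile rank. H4 minus H1 (3.57) was 1.56 in the promoter window. Summed signals gave 4.58 for H4 minus H2A (6.67), 5.70 for H4 minus H2B (6.90), 4.75 for H4 minus H3 (6.37) and 4.34 for chromosome 3 minus chromosome 13 (1.64). Without repeated members these were 7.20 for H2A, 7.26 for H2B and 2.29 for the clusters, and with 500 bp 7.14 for H3 and 1.22 for the clusters, which differed by 1.37 with 1 value per region. Paired minus unpaired members (-1.66) was -1.38 for pairs within 500 bp, -1.14 in the promoter window and, reversed, 1.02 among H2A and H2B genes. Within 250 bp the median of footprints (11) was 6.75, and within 100 bp before the start site 15 members (23) had a TATA box and 12 (28) a CCAAT box in a footprint of both libraries. With 1 library left out, the median signal was 5.61 to 5.81, H4 minus H1 2.89 to 5.34, minus H2A 6.45 to 6.81, minus H2B 6.87 to 7.35 and minus H3 5.90 to 6.85, the clusters differed by 1.48 to 1.64, pairs by -1.98 to -1.62, and 60 to 61 members were open. Depth is unknown, so the signals carry no counting interval, and 2 libraries limit every SD.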
